A study of Mus musculus with 6 samples.

Results

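The AP-1 and EGR immediate early genes were followed in splenic T cell preparations of mice without miR-142. They are 10 genes that many cell types transcribe within minutes of a stimulus: Fos, Fosb, Fosl2, Jun, Junb, Jund, Atf3, Egr1, Egr2 and Egr3. All probe sets that the platform annotation assigns to these genes were taken, which gave 15 of the 45037 probe sets tested and 10 of 18193 genes. Fos, Fosb, Junb, Egr1 and Atf3 have 1 probe set each, and the other 5 genes have 2. The arrays came from 3 miR-142 KO mice and 3 WT littermates, all male C57BL/6 animals 10 weeks old. T cells were isolated from each spleen separately, by removing the other cells. The labels do not name the deleted allele, and they do not say whether the deletion was limited to T cells. Neither group received a treatment.

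FOS and JUN proteins are leucine zipper factors that pair with each other to form AP-1, which binds DNA at a short palindrome. ATF3 belongs to the related ATF and CREB branch and is induced by many kinds of stress. EGR proteins are zinc finger factors that bind GC-rich sites. Antigen receptor signalling induces both families in T cells, and EGR2 and EGR3 are known there as brakes on activation.

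The microRNA that KO mice lack has 2 mature strands, shown 5′ to 3′ with the seed (bases 2 to 8) in capitals, because target recognition rests on the seed. Sequences are those of RefSeq on GRCm38.p6, where the strands lie at chr11:87756867-87756887 and chr11:87756903-87756925, both on the plus strand.
mmu-miR-142a-5p: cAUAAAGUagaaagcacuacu
mmu-miR-142a-3p: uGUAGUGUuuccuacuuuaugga

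Stretches upstream of the start sites of 5 of the 10 genes are shown because stimulus-induced genes are known to be controlled close to their starts. RefSeq promoter windows on GRCm38.p6 were found for 8 of the 10 genes. None was at hand for Egr1 and Egr3, so these were not searched. In the 250 bases before each start, 4 motifs were searched on both strands: the cyclic AMP response element (CRE) TGACGTCA with at most 1 other base, the AP-1 motif TGANTCA, the EGR motif GCGNGGGCG, and the CArG box bound by serum response factor. The CRE letters with 1 base changed can overlap the AP-1 motif only in part. Capitals mark the motif found in each stretch of 60 bases.
Fos, chr12:85473735-85473794, plus strand: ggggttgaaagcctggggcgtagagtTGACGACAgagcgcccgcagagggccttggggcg
Jun, chr4:95052234-95052293, minus strand: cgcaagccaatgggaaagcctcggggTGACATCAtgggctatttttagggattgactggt
Atf3, chr1:191183334-191183393, minus strand: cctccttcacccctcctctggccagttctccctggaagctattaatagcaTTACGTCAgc
Fosb, chr7:19310062-19310121, minus strand: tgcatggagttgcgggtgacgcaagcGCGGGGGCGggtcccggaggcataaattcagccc
Egr2, chr10:67537469-67537528, plus strand: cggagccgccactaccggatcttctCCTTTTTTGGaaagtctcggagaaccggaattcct

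The 8 genes had 12 windows in all. A gene was counted if any of its windows held the motif, while the shares below count single windows. A CRE with at most 1 other base stood in the windows of Fos, Jun, Egr2 and Atf3, and in 10.6% of all 32851 windows. An EGR motif stood in those of Fosb and Fosl2, and in 4.70% of all windows. A CArG box stood in those of Egr2, and in 1.47% of all windows. The AP-1 motif was in none of the windows of the 8 genes and in 6.75% of all windows. The Egr2 stretch shown lies within the span of its gene, chr10:67534469-67542188. The Fosb stretch, but for its outermost bases, also lies within its gene, chr7:19302696-19310118, and so does its EGR motif. The stretches of Fos, Jun and Atf3 lie outside the spans of their genes. All these motif matches describe letters only. Fos, Atf3 and a probe set of Jun were higher in KO and Egr2 lower (values below), so the genes with a CRE-like match did not all move one way. Junb and Jund both lie on chromosome 8, at chr8:84976909-84978748 and chr8:70697739-70700616 on GRCm38.p6, and the other 8 genes each lie on a chromosome of their own.

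The values were log2 probe-set intensities, with array medians between 5.70 and 5.77, and the number of arrays limits the precision. The transcript listed as Mir142, the host of the microRNA, averaged 5.92 ± 0.05 in KO and 7.91 ± 0.23 in WT (SD, n = 3 each, limma adjusted p = 6.6e-05). Whether that probe set lies within the deletion was not known here. The preparations also differed in makeup. All 16 measured T cell markers fell in KO (list means of 9.13 to 10.47 in KO and 11.93 to 11.95 in WT). Neutrophil markers averaged 10.07 to 12.50 in KO and 6.10 to 7.09 in WT. For mast cells, basophils and eosinophils these means were 9.31 to 9.72 in KO and 5.76 to 5.83 in WT. Markers of monocytes, macrophages and dendritic cells averaged 8.59 to 9.30 in KO and 6.13 to 6.49 in WT, and 9 of 11 erythroid and megakaryocyte markers rose (8.44 to 9.10 in KO and 6.33 to 6.70 in WT). B cell and plasma cell markers overlapped, at 7.27 to 7.89 in KO and 6.67 to 7.43 in WT. RNA quality was read from beta-actin, whose 3′ control exceeded its 5′ control by 0.32 to 0.40 in KO and 0.16 to 0.23 in WT. In such bulk RNA, fewer cells of a type and less RNA per cell cannot be told apart. The part of cell makeup and RNA quality in the results below was not tested. Bacterial hybridization controls averaged 9.80 to 9.91 in KO and 10.10 to 10.30 in WT. When each array was scaled to them, the median over all probe sets moved to 0.29 in place of -0.08, and the share of higher among changed probe sets was 88.1% in place of 47.2%.

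The immediate early genes split into 2 directions. Fosb, Atf3, Fos and Jun (at 1 of its 2 probe sets) rose in KO, while Egr3, Egr2, Junb and Jund (at 1 of its 2 probe sets) fell. Rose and fell stand for a limma adjusted p below 0.05. Of the 15 probe sets 4 rose and 6 fell, and across all probe sets 29.4% changed, 13.9% upward and 15.5% downward. The KO arrays lay wholly above the WT arrays for 5 of the 15 and wholly below for 6, and across all probe sets such separation was seen for 45.9%, with KO above for 18.5% and below for 27.4%. Taking each gene at its brightest probe set, 3 of 10 rose and 4 fell, against 37.2% changed among all genes, 18.6% in each direction. Under hybridization-control scaling 8 of the 15 probe sets rose and 4 fell, where 17309 of all probe sets rose and 2337 fell. Without KO replicate 2, 8 probe sets and 6 genes rose. Without KO replicate 3 or WT replicate 1, 3 probe sets and 2 genes fell. The median size of the difference, whatever its sign, was 0.85 over the 15 probe sets and 0.21 over all probe sets. That background was not matched for level. Of the 15, only Fosl2 1422931_at and Jund 1440265_at were dimmer than the median probe set, and dim probe sets understate a difference. With probe sets below the median level left out, 5702 of all rose and 5959 fell, a larger share than before, and 5 member probe sets rose and 6 fell. Differences below are log2 units of KO over WT, each with limma's moderated standard error.

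**Figure D1:**
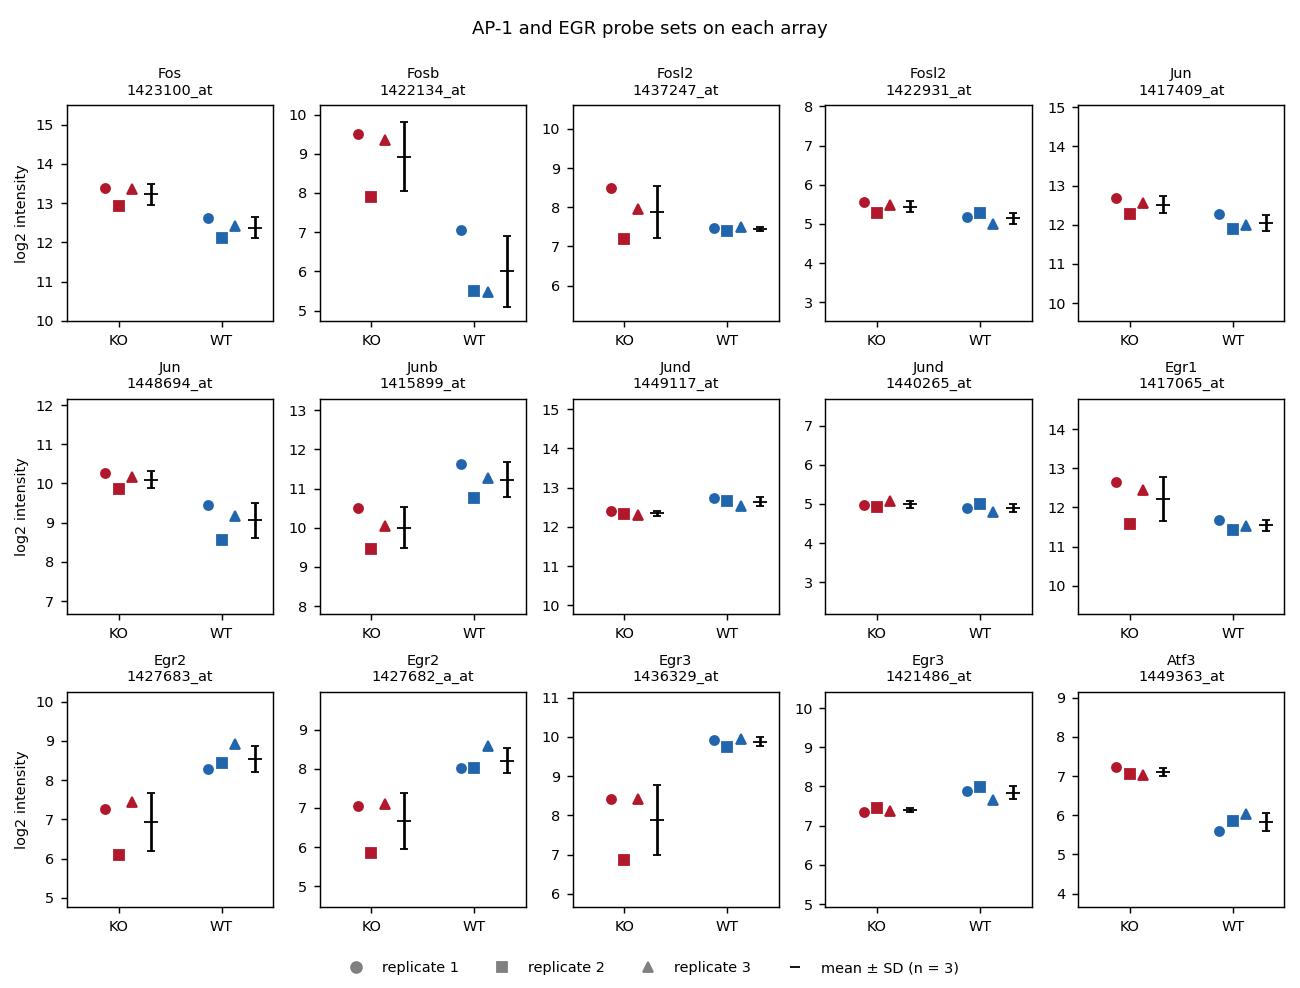
Log2 intensity (vertical axes, each spanning the same range) of the 15 probe sets on each array, KO left and WT right, with 1 symbol per replicate and bars for mean ± SD (n = 3). Fosb, Fos and Atf3 lie higher in every KO array, Junb, Egr2 and Egr3 lower, and KO replicate 2 (square) is the lowest KO array for 12 of the 15.

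Fosb, an AP-1 subunit that is scarce in resting cells, had the largest difference of the 15. Its log2 intensity was 9.50, 7.90 and 9.35 in KO replicates 1 to 3, against 7.05, 5.49 and 5.46 in WT replicates 1 to 3. KO replicate 2 was the low KO array and WT replicate 1 the high WT array, and the groups did not overlap. Fosb rose 7.57-fold, a difference of 2.92 ± 0.55 (SE, n = 3 per group, limma adjusted p = 0.0064). The difference was 3.96 without both of these arrays. Neutrophil markers were also highest among WT arrays in WT replicate 1, at 7.09 against 6.10 and 6.17. So were the B cell (7.43), monocyte (6.49) and erythroid (6.70) lists, while the mast cell list was lowest there (5.76).

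Fos, the founding member of the family, was already among the brightest probe sets in both groups, above 99.2% of the arrays' probe sets on average. It measured 13.38, 12.92 and 13.37 in KO, against 12.62, 12.10 and 12.41 in WT. The lowest KO array lay above the highest WT array, by 0.30. Fos rose 1.80-fold, by 0.85 ± 0.18 (SE, n = 3 per group, limma adjusted p = 0.010).

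Fosl2, which encodes the AP-1 subunit FRA-2, did not pass the test. Its brighter probe set (1437247_at) had 8.50, 7.19 and 7.96 in KO, against 7.47, 7.39 and 7.50 in WT. KO replicate 2 lay below all WT arrays and the other KO arrays above them. The difference of 0.44 had a 95% confidence interval from -0.25 to 1.12 (limma adjusted p = 0.315). Without KO replicate 2 it was 0.78 and passed the test (limma adjusted p = 0.0083, with a range of 0.0083 to 0.729 over the alternatives). The dim probe set (1422931_at) differed by 0.29 (limma adjusted p = 0.101), and by 0.38 without KO replicate 2, where it passed the test (limma adjusted p = 0.047, range 0.0093 to 0.248).

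Jun, the partner through which FOS proteins bind DNA, was higher in KO at both probe sets, of which 1 passed the test. At 1448694_at it had 10.26, 9.86 and 10.16 in KO, against 9.45, 8.57 and 9.16 in WT, with no overlap. There it rose 2.05-fold, by 1.04 ± 0.23 (SE, n = 3 per group, limma adjusted p = 0.012). At the brighter 1417409_at it had 12.69, 12.27 and 12.56 in KO, against 12.28, 11.89 and 11.98 in WT. KO replicate 2 lay just below WT replicate 1 here. The difference of 0.46 ± 0.15 narrowly missed the threshold (limma adjusted p = 0.055, range 0.0032 to 0.171). It passed in 9 of 14 alternatives, among them leaving out KO replicate 2 or WT replicate 1, each with a difference of 0.57.

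Junb, which can oppose JUN at AP-1 sites, went the other way. It had 10.49, 9.45 and 10.05 in KO, against 11.64, 10.75 and 11.28 in WT, so that the highest KO array lay below the lowest WT array. Junb fell 2.34-fold, with a difference of -1.22 ± 0.30 (SE, n = 3 per group, limma adjusted p = 0.021, range 0.0017 to 0.075). The call was lost without KO replicate 3, WT replicate 1 or WT replicate 3, where the difference was -1.25, -1.02 and -1.20. It was also lost without both WT replicate 1 and KO replicate 2, at -0.74.

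Jund, which is known for steady expression in resting cells, differed least of the genes with a call. At the bright probe set (1449117_at) it had 12.41, 12.32 and 12.30 in KO, against 12.75, 12.65 and 12.54 in WT. The groups did not overlap, yet the difference was only -0.30 ± 0.09 (SE, n = 3 per group, limma adjusted p = 0.041, range 0.012 to 0.663). It turned to 0.063 under hybridization-control scaling. The call was also lost without KO replicate 1, 2 or 3 (-0.33, -0.29 and -0.28) and without WT replicate 1 or 2 (-0.25 and -0.30). With the replicate number as a block it was lost as well (limma adjusted p = 0.083). The dim probe set 1440265_at differed by 0.09 (limma adjusted p = 0.519).

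Atf3 gave the smallest p of the 15 probe sets. It had 7.22, 7.06 and 7.02 in KO, against 5.59, 5.84 and 6.04 in WT, 2 tight and separate groups. Atf3 rose 2.43-fold, by 1.28 ± 0.13 (SE, n = 3 per group, limma adjusted p = 0.00043). The difference stayed between 1.16 and 1.64 and past the threshold in all 14 alternatives tried on it.

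**Figure D2:**
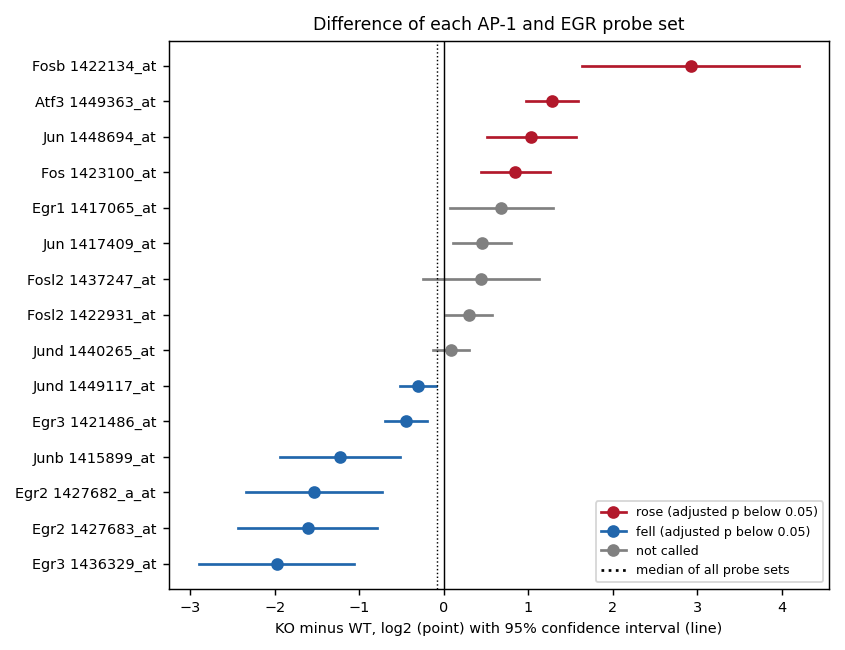
KO minus WT difference on the log2 scale (horizontal axis) with its 95% confidence interval for each of the 15 probe sets (vertical axis), coloured by call, with a dotted line at the median of all probe sets, -0.08. Fosb stands at 2.92 and Atf3 at 1.28 on the right, and the brighter Egr3 probe set at -1.98 on the left.

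The EGR genes did not move as a family. Egr1, the member induced most widely across tissues, had 12.64, 11.58 and 12.44 in KO, against 11.68, 11.42 and 11.53 in WT. KO replicate 2 lay within the WT range and the other KO arrays above it. The difference of 0.68 had an interval from 0.07 to 1.29 and did not pass the test (limma adjusted p = 0.092). Without KO replicate 2 it was 1.00 and passed (limma adjusted p = 0.00061, range 0.00061 to 0.231).

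Egr2 and Egr3 fell in KO. Egr2 (1427683_at) had 7.26, 6.09 and 7.44 in KO, against 8.28, 8.43 and 8.92 in WT. It fell 3.06-fold, with a difference of -1.61 ± 0.35 (SE, n = 3 per group, limma adjusted p = 0.012). The second Egr2 probe set (1427682_a_at), annotated to the same transcript record, differed by -1.54 (limma adjusted p = 0.013). Its call was lost without WT replicate 3, at -1.35 (limma adjusted p = 0.0505, range 0.0025 to 0.0505). Both probe sets read 1 gene and are not separate evidence.

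Egr3 (1436329_at) had 8.41, 6.86 and 8.41 in KO, against 9.93, 9.74 and 9.95 in WT. Again KO replicate 2 was far below the other KO arrays, while the WT arrays were within 0.21 of each other. Egr3 fell 3.95-fold, with a difference of -1.98 ± 0.39 (SE, n = 3 per group, limma adjusted p = 0.0081). The other Egr3 probe set (1421486_at) had 7.35, 7.45 and 7.38 in KO, against 7.89, 7.98 and 7.65 in WT. Its difference was smaller, -0.45 ± 0.11 (limma adjusted p = 0.018, range 0.0063 to 0.630). That call was lost without KO replicate 1 or 3 (-0.42 and -0.44), without WT replicate 1 or 2 (-0.42 and -0.38), and under hybridization-control scaling (-0.08).

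Members of a family were also set against each other on the same array, which removes any scaling shared by all probe sets. These 4 pairs were chosen after their values were seen. Such a difference shows unequal change between groups, not which gene is more abundant. Jun minus Junb was 2.20, 2.82 and 2.51 in KO, against 0.64, 1.14 and 0.70 in WT, so the pair differed by 1.68 between groups. Egr1 minus Egr2 was 5.38, 5.48 and 5.004 in KO, against 3.39, 2.99 and 2.60 in WT, a change of 2.29. Egr1 minus Egr3 differed by 2.66 and Fosb minus Junb by 4.15, again with no overlap. No test was made on these pairs, since their values chose them.

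Within groups the probe sets tended to share an order. KO replicate 2 was the lowest KO array for 12 of 15, against 34.8% of all probe sets, and KO replicate 1 the highest for 11 of 15, against 26.4%. In WT, replicate 1 was the highest for 7 and replicate 2 the lowest for 7, against 30.7% and 30.1%. KO replicate 2 also had the lowest T cell marker mean, 9.13 against 10.29 and 10.47 in KO replicates 1 and 3. Among KO arrays it was lowest too for the neutrophil (10.07), monocyte (8.59) and mast cell (9.31) lists. For the B cell (7.89) and erythroid (9.10) lists it was the highest. KO replicate 1 had the highest neutrophil mean, 12.50 against 10.07 and 10.63 in KO replicates 2 and 3. KO replicate 1 was also highest for the monocyte (9.30) and mast cell (9.72) lists. Its 18S ribosomal control stood apart at 7.86, against 9.15 and 9.19.

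Each gene was also set against the mean of the 16 T cell markers on the same array, a description added after the values were seen. These markers averaged 1.97 lower in KO, so this scale adds 1.97 to every difference and leaves the order of the genes as it was. Egr3 at its brighter probe set lay at -1.88, -2.27 and -2.06 in KO, against -2.02, -2.19 and -1.99 in WT, and differed by -0.01 in place of -1.98. Its other probe set (1421486_at) lay at -2.94, -1.68 and -3.08 in KO, against -4.06, -3.94 and -4.29 in WT, with KO wholly above and a difference of 1.53 in place of -0.45. The probe sets of Egr3 thus differed on this scale. Egr2 at its brighter probe set lay at -3.03, -3.04 and -3.03 in KO, against -3.66, -3.50 and -3.02 in WT, and differed by 0.36 in place of -1.61. Its other probe set (1427682_a_at) lay at -3.23, -3.28 and -3.36 in KO, against -3.93, -3.90 and -3.36 in WT. That probe set differed by 0.44 in place of -1.54, with the lowest KO array barely above the highest WT array. KO replicate 2, low for Egr2 and the brighter Egr3 probe set in absolute level, was level with the other KO arrays for Egr2 on this scale and still the lowest array of all for that Egr3 probe set. Junb differed by 0.75, with overlapping groups. The brightest probe sets of the other 7 genes lay higher in every KO array than in any WT array, from 1.67 for Jund to 4.90 for Fosb. Jund had fallen at this probe set as deposited (-0.30), and the added 1.97 placed it above. The share of all probe sets placed above on this scale was not computed, so the count is no trait of these genes. Whether the T cells were the source of each transcript was not tested.

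**Figure D3:**
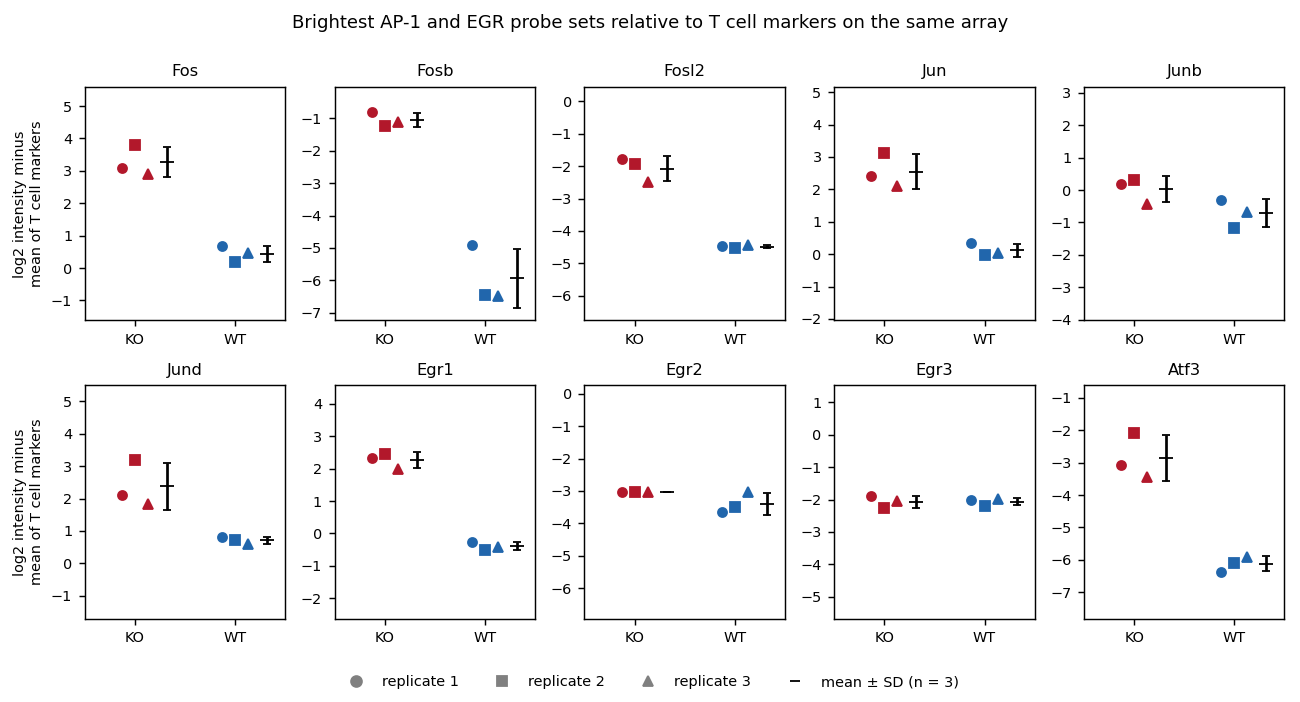
Log2 intensity of each gene's brightest probe set minus the mean of 16 T cell markers on the same array (vertical axes, each spanning the same range), KO left and WT right, with 1 symbol per replicate and bars for mean ± SD (n = 3). Egr2, Egr3 and Junb overlap between groups, and the other 7 genes lie higher in every KO array, on a scale that adds 1.97 to every difference.

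The genes of the lists below were counted at their brightest probe set, beside 18.6% of all genes that rose and 18.6% that fell. The lists share genes. Socs3, which fell, is counted among both the other immediate early genes and the EGR corepressors and targets. Maff, which did not pass the test, is counted among both the leucine zipper factors and the other immediate early genes. Of 19 listed AP-1-related leucine zipper factors outside the 10 genes 17 were measured, and 4 rose and 5 fell, with a median difference of -0.05 (-0.06 over all genes). Jdp2, a repressor of AP-1 sites, rose by 1.55 ± 0.21 (SE, n = 3 per group, limma adjusted p = 0.0014), with its second probe set at -0.14. Mafg, a small MAF protein, rose by 1.30 ± 0.11, and Atf5 and Atf7 by 0.51 and 0.40, with the second Atf7 probe set at -0.01. Batf, which pairs with JUN proteins in activated lymphocytes, had 8.95, 8.70 and 9.25 in KO, against 10.17, 10.22 and 10.63 in WT. Batf fell by 1.37 ± 0.18 (limma adjusted p = 0.0011), the lymphocyte repressor Bach2 by 1.11 ± 0.15, Crem by 0.90 and Maf by 0.86. The 3 other Crem probe sets differed by -0.26, -0.03 and -0.09 and did not pass. The call of Maf was lost without WT replicate 1 or 3 (-0.90 and -0.74) and under hybridization-control scaling (-0.49, limma adjusted p = 0.096). Without WT replicate 1, 3 of the 17 fell, and under hybridization-control scaling 8 rose and 3 fell.

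Among 46 other immediate early genes, more fell than rose in KO as deposited, 18 against 7, where 18.6% of all genes fell and 18.6% rose. Under hybridization-control scaling 12 fell and 11 rose. Their median difference as deposited was -0.47, against -0.06 over all genes. Klf4, a Krüppel-like factor prominent in myeloid cells, had 11.17, 10.35 and 10.85 in KO, against 8.45, 7.37 and 8.28 in WT. It rose 6.76-fold, by 2.76 ± 0.31 (SE, n = 3 per group, limma adjusted p = 0.00069). The stress-induced gene Ier3 rose by 2.03 ± 0.26, the small GTPase gene Rhob by 1.82 ± 0.25, and Ptgs2, an inducible prostaglandin synthase, by 1.63 ± 0.38. The call of Ptgs2 was lost without WT replicate 1 or 3 (1.60 and 1.61), and its second probe set differed by 0.07.

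Among those that fell, Dusp10, a phosphatase of the kinases JNK and p38, had 7.79, 7.32 and 7.87 in KO, against 9.91, 9.61 and 9.68 in WT. It fell by 2.07 ± 0.16 (SE, n = 3 per group, limma adjusted p = 0.00015). Klf2, a factor of resting T cells, fell by 1.93 ± 0.42, and the MAP kinase phosphatase Dusp2 by 1.54 ± 0.11. Nr4a3, an orphan nuclear receptor induced through the antigen receptor, fell by 1.62 ± 0.32 at its brightest probe set, while its 2 other probe sets differed by -0.01 and 0.01. Klf2 and Nr4a3 had their lowest KO value in replicate 2 (9.82 and 6.38), as Egr2 and the brighter Egr3 probe set did. This was no trait of genes that fell, since Klf4, Fos and Fosb, which rose, were lowest there too.

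**Figure D4:**
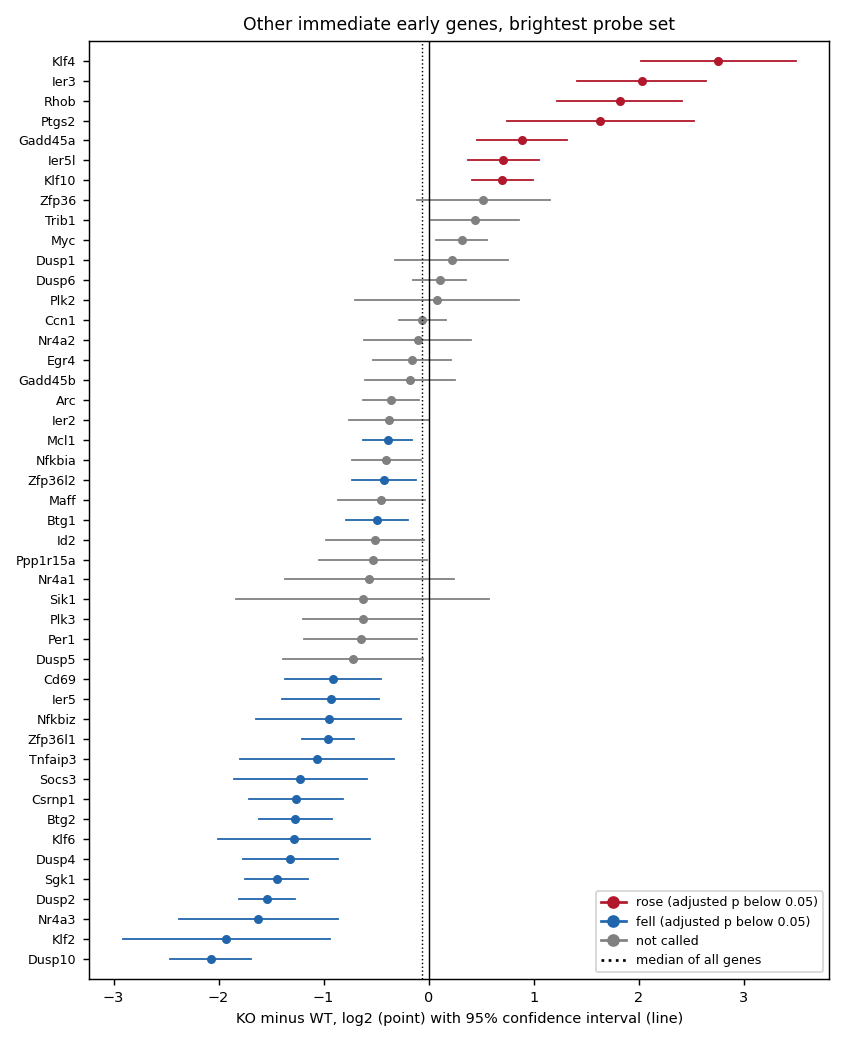
KO minus WT difference on the log2 scale (horizontal axis) with its 95% confidence interval for 46 further immediate early genes at their brightest probe set (vertical axis), coloured by call, with a dotted line at the median of all genes, -0.06. The 7 genes that rose stand at the top, led by Klf4 at 2.76, and the 18 that fell reach -2.07 for Dusp10.

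Serum response factor and its partners drive the CArG boxes of many immediate early genes. Of 6 such genes measured, 5 fell and none rose, against 18.6% of all genes in each direction, with a median of -0.76. Srf had 9.26, 8.93 and 9.21 in KO, against 9.79, 9.95 and 9.94 in WT. It fell by 0.76 ± 0.11 (SE, n = 3 per group, limma adjusted p = 0.0023), while its second probe set differed by -0.02. Its coactivator gene Mrtfa fell by 1.11 ± 0.24, and the ternary complex factors Elk4 and Elk3 by 0.93 ± 0.12 and 0.75 ± 0.11. Under hybridization-control scaling 2 of the 6 fell and the median was -0.39, and the calls of Srf (-0.39, limma adjusted p = 0.066) and Elk3 (-0.39, limma adjusted p = 0.057) were lost.

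In the MAP kinase cascade that feeds both families, 18 of 26 listed genes were measured, of which 3 rose and 5 fell, against 18.6% of all genes in each direction, with a median of 0.08. Rasgrp1, which activates RAS downstream of the T cell receptor, had 9.53, 8.10 and 9.65 in KO, against 11.28, 11.31 and 11.13 in WT. It fell 4.43-fold, by 2.15 ± 0.38 (SE, n = 3 per group, limma adjusted p = 0.0048). Map3k1, Araf and Rps6ka3, kinases of the cascade, fell by 1.04, 0.70 and 0.52. The second Map3k1 probe set differed by -0.42 and did not pass, and 1 of the others of Araf by -0.02 and 1 of Rps6ka3 by -0.12. Mapkapk2 and Rps6ka5, kinases downstream of p38, rose by 1.36 ± 0.13 and 1.26 ± 0.12, and Map2k3, which activates p38, by 0.73. Under hybridization-control scaling 9 rose and 2 fell, and Araf (-0.33, limma adjusted p = 0.119) and Rps6ka3 (-0.16, limma adjusted p = 0.394) lost their calls.

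Of 14 corepressors of EGR proteins and genes reported as EGR2 or EGR3 targets in T cells, 9 fell, 5 did not pass the test and none rose, against 18.6% of all genes in each direction. Their median was -0.95. Id3, an inhibitor of E proteins, fell by 2.32 ± 0.15 (SE, n = 3 per group, limma adjusted p = 7.0e-05). Dgka, a lipid kinase that dampens receptor signalling, fell by 2.11 ± 0.36, the death ligand Fasl by 1.78 ± 0.34, and the ubiquitin ligase Cblb by 1.69 ± 0.14. Under hybridization-control scaling 6 of these 14 fell and Nab1 rose by 0.36 (a gene chosen with its value known). As deposited, Nab1 differed by -0.01 at this probe set. Its other probe sets differed by -0.49, which passed the test, and by -0.26, which did not. T cell markers fell in the same arrays with a median of -1.86.

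Among 13 measured genes reported as AP-1 targets, 4 rose and 2 fell, against 18.6% of all genes in each direction, with a median of 0.67. S100a9 and S100a8 rose by 6.21 ± 1.19 and 6.11 ± 1.01 (SE, n = 3 per group), Ccnd1, which encodes cyclin D1, by 2.76 ± 0.22, and the adhesion receptor Cd44 by 0.67 ± 0.12. The 3 other Cd44 probe sets differed by 0.33, -0.07 and 0.29 and did not pass. S100a8 and S100a9 are also neutrophil markers, and both were highest among WT arrays in replicate 1, at 9.29 and 8.78. Without that array they rose by 7.34 and 7.49. S100a8 rose by 5.34 without WT replicate 2, and S100a9 by 5.51 without WT replicate 3, 5.29 without KO replicate 1 and 6.89 without KO replicate 2. The T cell cytokines Ifng and Il2 fell by 1.86 ± 0.27 and 1.19 ± 0.12. Under hybridization-control scaling 9 of the 13 rose and 2 fell.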

How the data were processed

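The deposited values are log2 probe-set intensities of Affymetrix 1-colour arrays, made by the authors with RMA (version not given), per the submitters' processing notes. Replicates are separate animals, per the labels. Values were used as deposited. Of 45101 probe sets 64 were array controls. Platform annotation gave 1 gene for 34945 of the 45037 tested, several for 932, and did not list 9160. Of the 34945, 34741 matched the GRCm38.p6 gene table by Entrez ID.

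limma 3.58.1 in R 4.3.3 (lmFit, eBayes without trend) compared 3 KO with 3 WT arrays, with Benjamini-Hochberg adjustment over all 45037 probe sets. Without detection calls, dim probe sets understate a difference. All 10 genes are named, and in every other list up to 4 genes with the largest rise and 4 with the largest fall. The genes and lists were chosen with earlier results of these data known. In simulated data limma recovered 3 of 67 probe sets shifted by 0.5, 46 of 67 by 1 and 61 of 66 by 2, with 3 false calls. Only 200 probe sets were shifted there, whereas 13228 were called in the real data. The adjustment was therefore stricter in the simulation, and its recovery rates do not give the sensitivity of the real comparison. Alternatives covered dim probe sets, normalization, variance model, array weights, replicate block, thresholds, arrays left out and averaging the probe sets of each gene. Same-numbered KO and WT arrays did not deviate together (r = 0.10, -0.24 and -0.20 over probe sets).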

Additional observations from a re-analysis of the deposited data

How the results depend on the processing

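Fos, Fosb, Atf3, the Jun probe set 1448694_at and the brighter probe sets of Egr2 and Egr3 kept their direction and their call in all 14 alternatives tried on each. As deposited, 4 of the 15 probe sets rose and 6 fell. Scaled to the hybridization controls, 8 rose and 4 fell, Jund 1449117_at turned to 0.063, and over all probe sets 17309 rose and 2337 fell. Leaving out single arrays gave 4 to 8 that rose and 3 to 5 that fell, and dropping both KO replicate 2 and WT replicate 1 gave 7 and 3. At the brightest probe set, 3 genes rose and 4 fell, against 5 that rose under hybridization-control scaling, with array weights or at an adjusted p below 0.10. Single arrays left out gave 3 to 6 genes that rose and 2 to 3 that fell, and both arrays left out gave 6 and 2. With a minimum change of 1.5-fold 3856 of all probe sets fell. The replicate number as a block gave 5 probe sets that rose and 5 that fell: the labels share numbers but pair no animals. The block added the call of Jun 1417409_at (adjusted p = 0.031) and lost that of Jund 1449117_at (0.083). The causes were not tested. The number of arrays and the signal of dim probe sets limit what can be seen.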
